A study of Mus musculus with 17 samples.

Results

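The 50 genes described here encode the machinery that fills, docks, fuses and recycles synaptic vesicles. Of them, 35 are vesicle, release and recycling genes, and 15 encode subunits of the vacuolar proton pump (V-ATPase). They were chosen by name, matched by symbol to the Ensembl identifiers of the count tables, and are 50 of 55450 genes listed. All 50 passed the filter on low counts, among 17615 genes tested.

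RNA came from hippocampi of adult mice, C57BL/6J of either sex per the study's methods, in 17 polyA libraries. The 5 control sgLacZ libraries came from control mice, which the study calls sham controls. The 6 epileptic sgLacZ libraries came from mice made epileptic by kainic acid injected into the right amygdala. The 6 libraries labelled epileptic sgKcna1 came from the same model given a guide RNA to the potassium channel gene Kcna1 in place of the bacterial control guide. All 3 groups carried the CRISPR activator: AAV9 vectors in the right ventral hippocampus delivered dCas9-VP64 under a doxycycline-dependent promoter and the guide with a Camk2a-driven transactivator, which biased it to excitatory neurons. In the study's plan, doxycycline was added to the food before the hippocampi were collected. Each library is labelled as a sample of its own. Nothing in the labels ties a library to an animal, so p-values measure the spread between these samples.

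Between 11839240 and 28311328 reads per library fell in genes. Kcna1, the gene that the guide targets, read 13.9 to 29.5 CPM (counts scaled to library size by TMM) in 5 of the 6 libraries labelled epileptic sgKcna1 and 133 CPM in replicate 12. It read 25.5 to 44.0 CPM in control sgLacZ and 16.9 to 56.7 CPM in epileptic sgLacZ. Its difference between the epileptic groups did not pass the test (log2 fold change 0.32, SE 0.47, edgeR Benjamini-Hochberg adjusted p = 0.706). By qPCR on mice taken after EEG recording, the study reported more Kcna1 in hippocampi given the Kcna1 guide than in the contralateral ones. It saw no clear increase by RNA-seq, which it proposes may reflect few Kcna1 reads. Replicate 12 also had the most unmapped reads, 41.5% against 19.1 to 24.6% in the rest of its group, and among the 43 members that share no reads with an overlapping gene it was the lowest of all 17 libraries for 6 V-ATPase and 7 vesicle genes and the highest for 3 and 6.

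A V-ATPase hydrolyses ATP in its cytosolic V1 sector and moves protons through its membrane V0 sector. The acid and electrical gradient it builds drives the transporters that load vesicles with glutamate or other transmitters. Filled vesicles are tethered by synapsins and active zone scaffolds, primed by Unc13 and Rim proteins, fused by the SNARE proteins syntaxin, SNAP-25 and synaptobrevin when synaptotagmin binds calcium, and retrieved by dynamin and its partners.

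Per kilobase of the longest protein-coding transcript, the most abundant member in control sgLacZ was Snap25 at 1160.2 CPM per kb, followed by the vesicle SNARE gene Vamp2 at 596 and Atp6v1e1 at 539.6 CPM per kb. Cplx2, Syp and Rab3a, which clamp fusion, mark the vesicle membrane and tether the vesicle, read 452, 431 and 406 CPM per kb. The scarcest were Syn3 and Doc2a at 0.269 and 0.462 CPM per kb. Both overlap genes on the other strand, and most of their reads were dropped from the unstranded counts used here. Syp also shares reads with an overlapping gene. With both strand columns added its count was 1.93 times as large, so its place in this order is uncertain. In bulk tissue, fewer cells of a type and less RNA per cell cannot be told apart, and this holds for every level and change below.

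In epileptic sgLacZ against control sgLacZ, more V-ATPase genes were lower than higher and vesicle genes went both ways. Of the 15 V-ATPase genes, 3 fell at an edgeR adjusted p under 0.05 (Atp6v1e1, Atp6v1h and Atp6ap2) and none rose. Of the 35 vesicle genes, 3 were called higher (Slc17a7, Unc13a and Doc2a) and 1 lower (Syt4). The sign of Doc2a, which overlaps another gene, turned with the reads of both strand columns added, so no direction is given for it below. Over all genes tested 7.26% rose and 3.76% fell. At an unadjusted p under 0.05, 7 V-ATPase genes were lower and 1 higher, against 5 lower and 11 higher among the vesicle genes and 15.9% lower and 18.8% higher over all genes. Among the 29 vesicle genes that share no reads with an overlapping gene, 1 was called, with 4 lower and 8 higher at that unadjusted threshold. The median log2 fold change was -0.19 for the V-ATPase genes, 0.19 for the vesicle genes and 0.02 for all genes tested. The calls depended on single libraries, over all genes as well as the 50. Without control sgLacZ replicate 13, 14, 16 or 23, or epileptic sgLacZ replicate 4, 7 or 9, edgeR called 0 of all genes tested, and without control replicate 15 it called 2.9% of all genes and 0 of the 50. In these 8 fits 19 to 25 of the 50 had an unadjusted p under 0.05, against 26 to 33.1% of all genes, and the 7 genes called with all libraries kept their sign, at 75.2 to 108% of their log2 fold change.

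**Figure D1:**
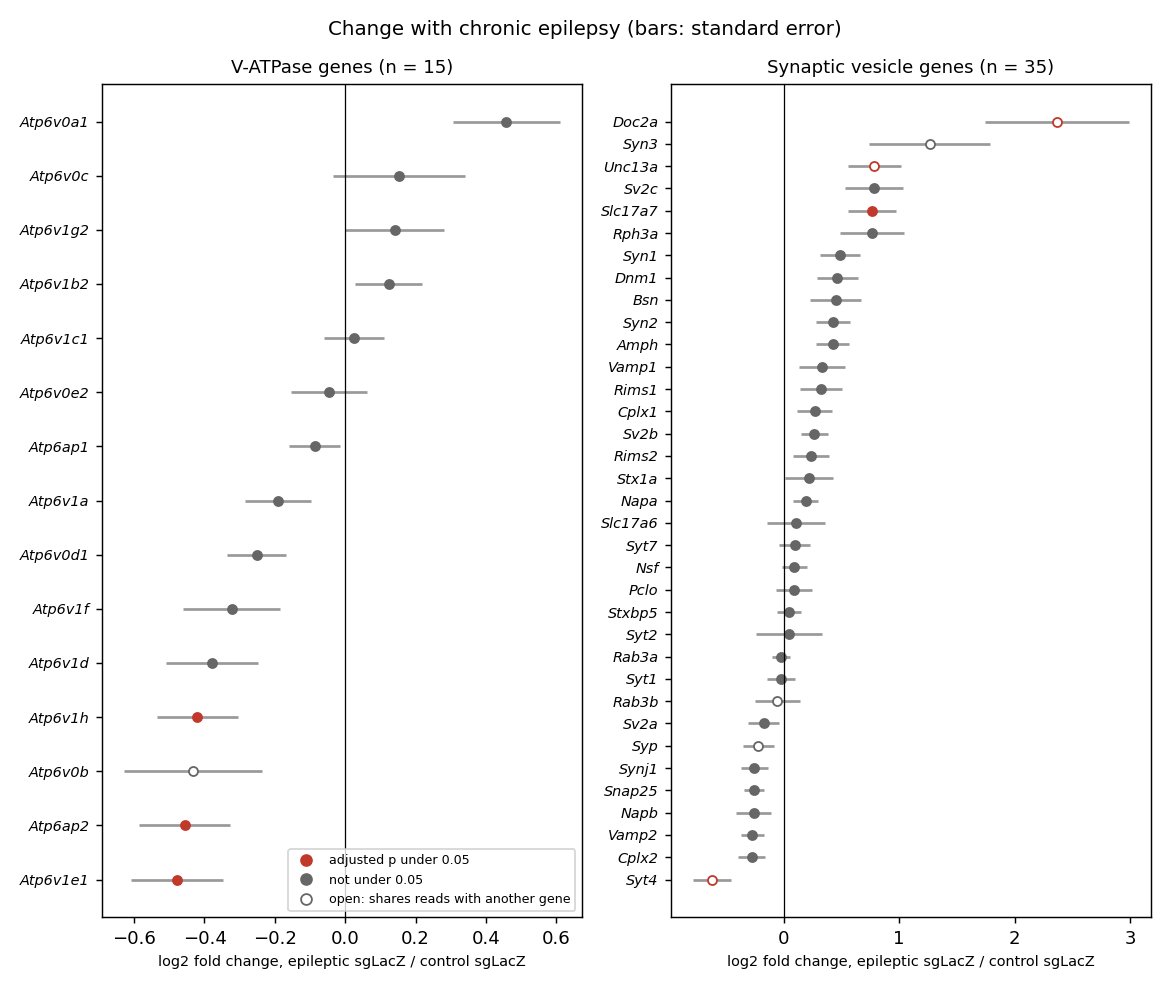
Log2 fold change of each of the 50 genes in epileptic sgLacZ over control sgLacZ (points) with its standard error (bars), V-ATPase genes on the left and vesicle genes on the right, on axes of different width. Red points passed the adjusted test, and open points are genes that share reads with an overlapping gene. V-ATPase genes run from -0.48 (Atp6v1e1) to 0.46 (Atp6v0a1) and vesicle genes from -0.62 (Syt4) to 2.36 (Doc2a).

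Among the V1 genes, Atp6v1e1 (ENSMUSG00000019210, chr6:120795244-120822698, RefSeq coordinates of GRCm38.p6, here and below) encodes a peripheral stalk subunit that holds the catalytic head. It read 716, 658, 621, 617 and 634 CPM in control sgLacZ replicates 13, 14, 15, 16 and 23. In epileptic sgLacZ it read from 338 to 616 CPM, with a median of 465.5. The highest epileptic library, replicate 5, lay just under the lowest control, so the groups did not overlap, which held in the lower direction for 2.4% of all genes tested. The gene was 1.39-fold lower (log2 fold change -0.48, SE 0.13, edgeR Benjamini-Hochberg adjusted p = 0.0369), and its log2 fold change was -0.48 among the libraries inferred female and -0.49 among those inferred male.

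Atp6v1h (ENSMUSG00000033793, chr1:5082978-5163213) encodes the regulatory subunit that silences V1 when it detaches. It read 316, 309.6, 279.8, 300.5 and 297 CPM in the controls, and 172 to 285 CPM with a median of 221 in epileptic sgLacZ. Replicate 5 of epileptic sgLacZ alone reached into the control range. The gene was 1.34-fold lower (log2 fold change -0.42, SE 0.11, edgeR Benjamini-Hochberg adjusted p = 0.0369).

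Atp6ap2 (ENSMUSG00000031007, chrX:12587759-12617051), the (pro)renin receptor, is an accessory subunit of the pump. Its control libraries read 532, 460.4, 424, 457 and 405 CPM. Its epileptic sgLacZ libraries read 248 to 406 CPM around a median of 335, and again only replicate 5 exceeded the lowest control. It was 1.37-fold lower (log2 fold change -0.46, SE 0.13, edgeR Benjamini-Hochberg adjusted p = 0.0401). The second accessory subunit gene, Atp6ap1, read 379.8 ± 14.8 CPM (SD, n = 5) in controls and 358 ± 19.8 CPM (SD, n = 6) in epileptic sgLacZ, with an adjusted p of 0.409 by edgeR.

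**Figure D2:**
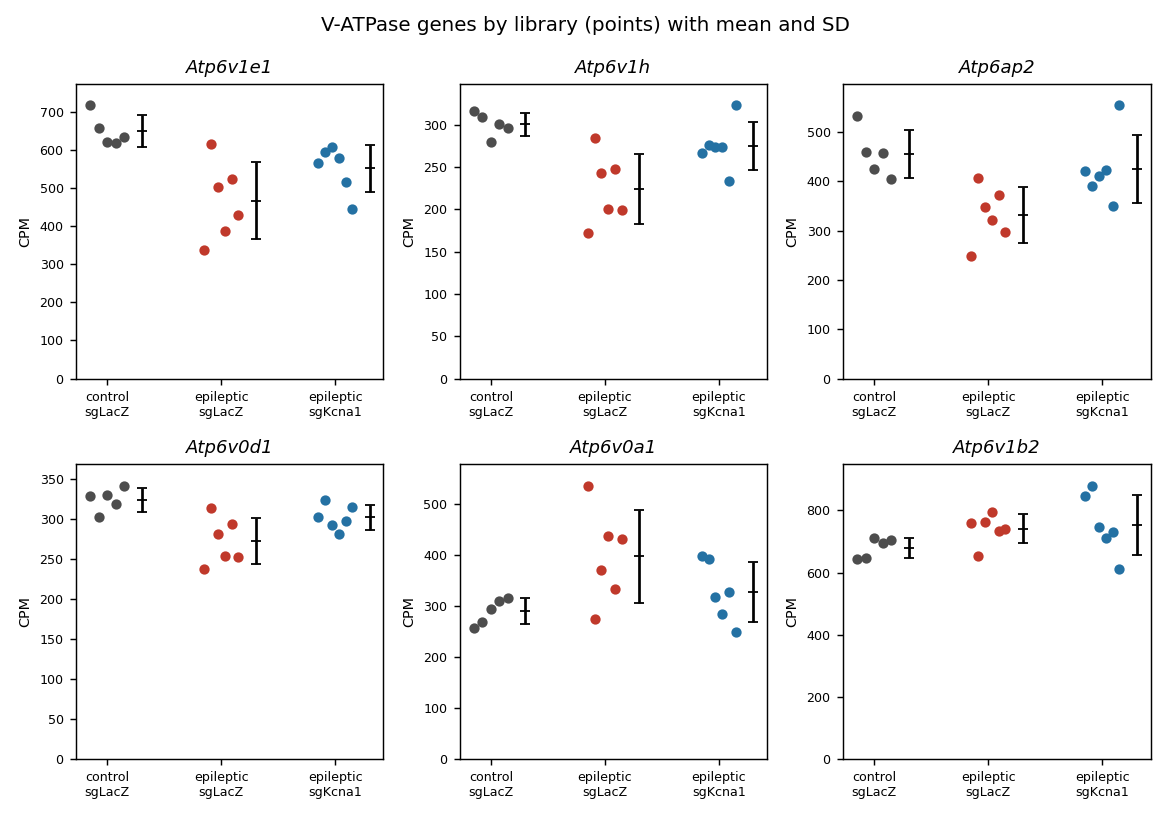
Normalized level (CPM, axes from 0) of 6 V-ATPase genes in every library (points), with the mean and SD of each group beside them, for control sgLacZ (n = 5), epileptic sgLacZ (n = 6) and epileptic sgKcna1 (n = 6). Atp6v1e1, Atp6v1h, Atp6ap2 and Atp6v0d1 lie lower in most epileptic sgLacZ libraries, and Atp6v0a1 and Atp6v1b2 lie above every control in all of them but replicate 5.

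The V0 genes went both ways. Atp6v0d1 encodes the subunit that joins the central stalk to the membrane ring. It read 328, 301, 330.0, 318 and 341 CPM in controls and 237 to 314 CPM, median 267, in epileptic sgLacZ, with replicate 5 inside the control range. The difference did not pass the adjusted test (log2 fold change -0.25, SE 0.08, edgeR Benjamini-Hochberg adjusted p = 0.0547). Atp6v0a1 encodes the neuronal form of the large subunit that carries protons and anchors the pump at synapses. It read 257, 268, 294, 310.3 and 315 CPM in controls and 274 to 535 CPM, median 400.4, in epileptic sgLacZ. All epileptic libraries but replicate 5 lay above the highest control, opposite to Atp6v0d1, and this difference too missed the threshold (log2 fold change 0.46, SE 0.15, edgeR Benjamini-Hochberg adjusted p = 0.0554).

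Other V-ATPase genes at an unadjusted p under 0.05 were all lower: Atp6v1d, a central rotor subunit (log2 fold change -0.38, SE 0.13), Atp6v1f, a second rotor subunit (-0.32, SE 0.14), and the membrane ring gene Atp6v0b (-0.43, SE 0.20), which shares reads with an overlapping gene. Their edgeR adjusted p-values were 0.0626, 0.109 and 0.126. The sign of Atp6v1f turned, to 0.15 (SE 0.0655), with trends on transcript length and GC content removed. The catalytic pair differed from each other in sign and neither passed: Atp6v1a, which holds the ATPase site, had a log2 fold change of -0.19 (SE 0.09) and its brain partner Atp6v1b2 one of 0.12 (SE 0.09). All epileptic sgLacZ libraries but replicate 5 read above the highest control for Atp6v1b2. The remaining genes Atp6v1c1, Atp6v1g2, Atp6v0c and Atp6v0e2, a V1 clamp, a neuronal stalk subunit, the ring's main proteolipid and a small V0 subunit, had log2 fold changes from -0.05 to 0.15.

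By sector, 2 of the 8 V1 genes and 1 of the 2 accessory genes were called lower. Of the 5 V0 genes 0 were called, with 1 higher and 2 lower at an unadjusted p under 0.05. Among 13 tested genes of a further list of pump subunits and assembly factors, 1 rose and 2 fell. Over all genes tested 7.26% rose and 3.76% fell. Atp6v0a2, a V0 isoform of endomembranes that overlaps another gene, rose (log2 fold change 0.73, adjusted p = 0.032 by edgeR). Atp6v1g1, the widely expressed stalk isoform, fell (log2 fold change -0.50, adjusted p = 0.0455 by edgeR), as did Rogdi, a partner of the assembly complex that shares some reads with an overlapping gene (log2 fold change -0.46, adjusted p = 0.0403 by edgeR). The median of that list was -0.16. The summed level of the 15 V-ATPase genes ran from 6151 to 6525 CPM in controls and from 5273 to 6028 CPM in epileptic sgLacZ.

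Promoters of the pump genes are shown because many lysosomal and V-ATPase genes share the CLEAR element, whose core is TCACGTGA. RefSeq windows of GRCm38.p6, 250 bases before to 50 after a transcription start, were held for 12 of the 15 V-ATPase genes and 28 of the 35 vesicle genes. The core equals its own reverse complement, so a single search covers both strands. It stood in 2 of the 12 V-ATPase genes with a window, in 0 of the 28 vesicle genes and in 1.12% of 27025 genes with a window. The shorter CACGTG, which the core contains, stood in 3 V-ATPase genes (also Atp6v0b), in 3 vesicle genes (Napa, Nsf and Sv2b) and in 8.09% of genes. The 2 windows with the core belong to Atp6v0d1 (chr8:105566015-105566314, minus strand) and Atp6v1a (chr16:44139210-44139509, minus strand), and the third shown, with the cAMP response element TGACGTCA, to the synapsin gene Syn1 (chrX:20920869-20921168, minus strand). Capitals mark the motif.
Atp6v0d1: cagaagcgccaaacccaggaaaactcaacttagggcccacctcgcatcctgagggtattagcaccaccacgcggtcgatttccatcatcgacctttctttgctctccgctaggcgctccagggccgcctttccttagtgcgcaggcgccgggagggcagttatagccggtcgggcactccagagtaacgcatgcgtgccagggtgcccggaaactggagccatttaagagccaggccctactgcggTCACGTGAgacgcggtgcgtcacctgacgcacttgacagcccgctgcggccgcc
Atp6v1a: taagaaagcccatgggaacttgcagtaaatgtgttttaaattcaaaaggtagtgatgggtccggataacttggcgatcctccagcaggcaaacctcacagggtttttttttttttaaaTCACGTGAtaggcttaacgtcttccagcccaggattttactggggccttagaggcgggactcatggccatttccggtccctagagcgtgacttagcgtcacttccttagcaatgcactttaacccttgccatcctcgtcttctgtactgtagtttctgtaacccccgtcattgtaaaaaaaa
Syn1: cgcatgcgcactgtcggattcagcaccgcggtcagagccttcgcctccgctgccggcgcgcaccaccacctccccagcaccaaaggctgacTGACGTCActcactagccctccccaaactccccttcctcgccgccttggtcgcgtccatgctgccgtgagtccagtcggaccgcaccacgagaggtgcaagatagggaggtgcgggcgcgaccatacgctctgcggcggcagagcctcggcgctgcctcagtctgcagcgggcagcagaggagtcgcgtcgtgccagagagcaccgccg
The cAMP response element stood in 2 vesicle genes (Napa and Syn1), in 0 V-ATPase genes and in 2.03% of genes, searched in the same way. Atp6v0d1 and Atp6v1a, the carriers of the longer core, had log2 fold changes of -0.25 and -0.19 in epileptic sgLacZ, and Atp6v1e1, with the largest decrease among the pump genes, held none of these 3 motifs in the windows searched. A match is only a match of letters.

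Among the transporters that load vesicles, Slc17a7 (VGLUT1, ENSMUSG00000070570, chr7:45163921-45176139) is the glutamate transporter of hippocampal and cortical excitatory terminals. It read 564, 689, 726, 741 and 772 CPM in control sgLacZ replicates 13, 14, 15, 16 and 23. In epileptic sgLacZ it read 660.2 to 1573 CPM with a median of 1222. Every epileptic library but replicate 5 exceeded the highest control. Slc17a7 was 1.70-fold higher (log2 fold change 0.77, SE 0.21, edgeR Benjamini-Hochberg adjusted p = 0.0366), by 0.55 among the libraries inferred female and 0.87 among those inferred male. It was the single vesicle gene called that shares no reads with an overlapping gene. Slc17a6 (VGLUT2), used more by subcortical inputs, read 24.4 ± 5.61 CPM (SD, n = 5) in controls and 26.3 ± 12.1 CPM (SD, n = 6) in epileptic sgLacZ (edgeR Benjamini-Hochberg adjusted p = 0.785). Its log2 fold change was 0.11, but -0.16 without epileptic sgLacZ replicate 4, which held the highest level, 48.4 CPM.

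The remaining calls were Unc13a, Syt4 and Doc2a. Unc13a (Munc13-1, ENSMUSG00000034799, chr8:71624125-71671774) primes docked vesicles for fusion. It read 91.1, 101, 106, 128 and 119.8 CPM in controls and 109 to 308 CPM, median 184, in epileptic sgLacZ. Epileptic replicate 5 lay among the controls and replicate 4 far above the rest. Unc13a was 1.72-fold higher (log2 fold change 0.79, SE 0.23, edgeR Benjamini-Hochberg adjusted p = 0.0404), and with the reads of both strand columns added its log2 fold change was 0.56.

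Syt4 encodes a synaptotagmin found on dense-core vesicles. It read 246, 223, 225, 230.1 and 204 CPM in controls and 120.1 to 206 CPM, median 137, in epileptic sgLacZ. Only replicate 5, at 206 CPM, reached the lowest control. Syt4 was 1.54-fold lower (log2 fold change -0.62, SE 0.16, edgeR Benjamini-Hochberg adjusted p = 0.0347), the smallest adjusted p of the 50. It shares some reads with an overlapping gene, and with both strand columns added its log2 fold change was -0.45.

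Doc2a, a calcium sensor of spontaneous and asynchronous release, read 0.541, 0.208, 1.67, 1.73 and 1.71 CPM in controls and 1.51 to 9.30 CPM, median 6.05, in epileptic sgLacZ (log2 fold change 2.36, SE 0.62, edgeR Benjamini-Hochberg adjusted p = 0.0355). This call rests on the few reads that escape an overlapping gene. The strand columns, which keep the reads over both genes, held 14.4 times as many, and with them added the log2 fold change was -0.18, of opposite sign, with an edgeR Benjamini-Hochberg adjusted p of 0.295. The same held for Syn3, a synapsin, whose log2 fold change of 1.26 turned to -0.30 with the strand columns added. No direction is given for either gene.

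**Figure D3:**
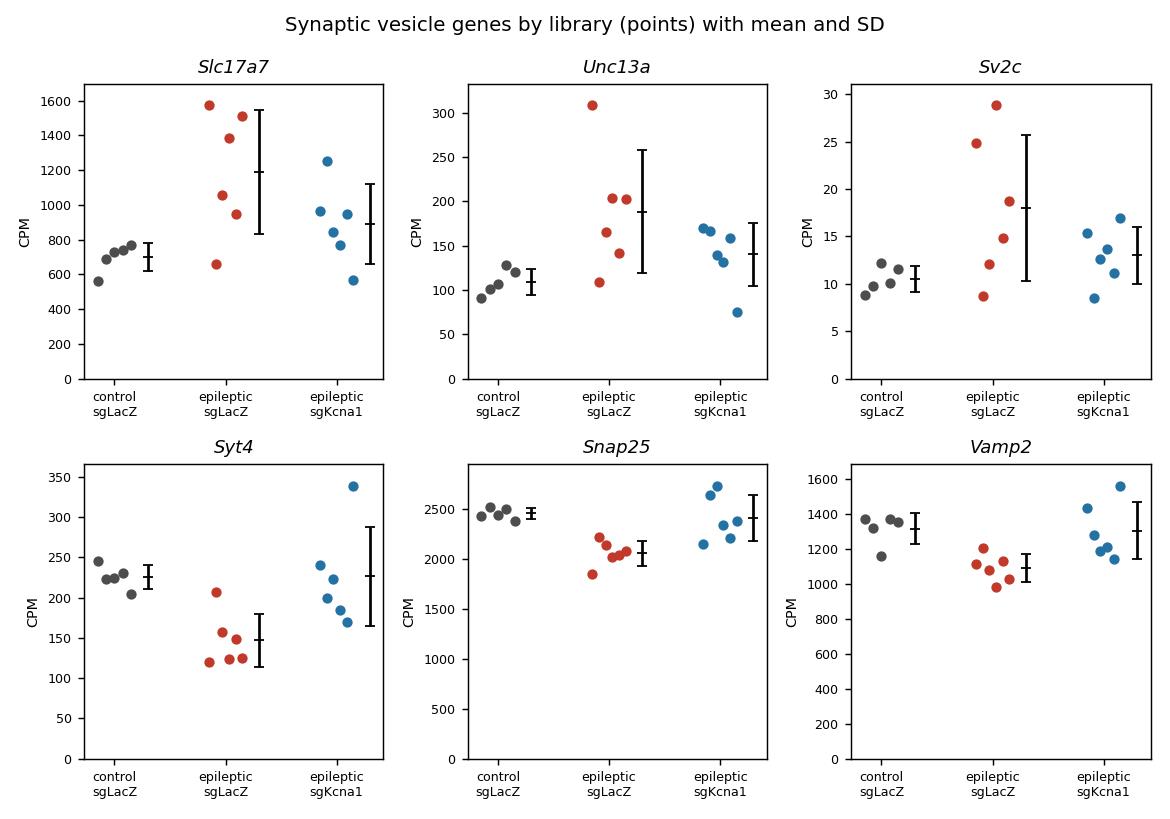
Normalized level (CPM, axes from 0) of 6 vesicle genes in every library (points) with the mean and SD of each group beside them, for control sgLacZ (n = 5), epileptic sgLacZ (n = 6) and epileptic sgKcna1 (n = 6). Slc17a7, Unc13a and Sv2c lie higher and Syt4, Snap25 and Vamp2 lower in most epileptic sgLacZ libraries, and the sgKcna1 libraries overlap both other groups in every panel.

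The fast calcium sensors did not pass the test. Syt1, the sensor of synchronous release, read 933, 970.4, 792, 961 and 926 CPM in controls and 750.2 to 1189.8 CPM, median 862, in epileptic sgLacZ (log2 fold change -0.02, SE 0.12, edgeR Benjamini-Hochberg adjusted p = 0.906). Syt2, its counterpart in fast inhibitory and hindbrain terminals, read 25.4 ± 4.58 CPM (SD, n = 5) against 26.2 ± 9.44 CPM (SD, n = 6), with an edgeR adjusted p of 0.922. Syt7, a slow, high-affinity sensor, had a log2 fold change of 0.09 (SE 0.13). The signs of Syt1, Syt2 and Syt7 changed under other settings.

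Of the SNARE genes, Snap25 and Vamp2 were lower without passing the adjusted test. Snap25, which gives 2 helices of the fusion complex, read 2431, 2524, 2441, 2497 and 2382 CPM in controls and 1849 to 2223 CPM, median 2058, in epileptic sgLacZ. Every epileptic library lay below every control, yet the adjusted p missed the threshold (log2 fold change -0.26, SE 0.09, edgeR Benjamini-Hochberg adjusted p = 0.0609). Vamp2 (synaptobrevin 2), the vesicle SNARE of most forebrain terminals, read 1372, 1319, 1160.3, 1368 and 1351 CPM in controls and 979 to 1207 CPM, median 1096, in epileptic sgLacZ (log2 fold change -0.27, SE 0.10, edgeR Benjamini-Hochberg adjusted p = 0.0684). Here control replicate 15 lay within the epileptic range and the rest of the controls above it. Napb, the brain form of the adaptor that brings Nsf to spent SNARE complexes, also did not overlap between the groups, at 578 to 669 CPM in controls against 471 to 575 CPM, with an edgeR Benjamini-Hochberg adjusted p of 0.235. Atp6v1e1, Snap25 and Napb made 3 of 50 members that did not overlap in the lower direction, against 2.4% of all genes tested. In the higher direction these were 0 of 50 members, against 2% of all genes tested.

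Other SNARE partners and regulators went both ways, and none passed the test. Vamp1, the synaptobrevin of fast-firing neurons, read 78.7, 77.8, 101, 90.8 and 95.3 CPM in controls and 90.6 to 155 CPM, median 106, in epileptic sgLacZ, where replicates 5 and 8 lay within the control range and the rest above it (log2 fold change 0.33, SE 0.20, edgeR Benjamini-Hochberg adjusted p = 0.238). The syntaxin gene Stx1a had a log2 fold change of 0.22 (SE 0.20), Stxbp5 (tomosyn), which blocks SNARE assembly, one of 0.05 (SE 0.11), and the disassembly ATPase Nsf and its adaptor Napa 0.09 and 0.19. Complexins, which clamp and then promote fusion, were of opposite sign: Cplx2 -0.28 (SE 0.12) and Cplx1 0.27 (SE 0.15), with edgeR adjusted p-values of 0.102 and 0.207.

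Among vesicle membrane and tethering proteins, Sv2c, the rarest of the SV2 glycoproteins in hippocampus, read 8.82, 9.78, 12.2, 10.1 and 11.6 CPM in controls and 8.67 to 28.8 CPM, median 16.7, in epileptic sgLacZ. Epileptic libraries 4, 7, 8 and 9 exceeded all controls and 5 lay below them, and the difference missed the threshold (log2 fold change 0.78, SE 0.25, edgeR Benjamini-Hochberg adjusted p = 0.0511). Its relatives Sv2b and Sv2a, the latter the binding site of the antiseizure drug levetiracetam, had log2 fold changes of 0.27 (SE 0.12) and -0.17 (SE 0.14). Synaptophysin, Syp, read 1239, 1181, 839.7, 1136 and 1186 CPM in controls and 890.2 to 1184 CPM, median 918, in epileptic sgLacZ (log2 fold change -0.22, SE 0.14, edgeR Benjamini-Hochberg adjusted p = 0.268), and it shares reads with an overlapping gene.

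Synapsins, which hold the reserve pool, were higher at an unadjusted p under 0.05: Syn1 by 0.49 (SE 0.18) and Syn2 by 0.43 (SE 0.14) on the log2 scale, with edgeR adjusted p-values of 0.0684 and 0.0583. Rph3a, an effector of Rab3, was higher by 0.76 (SE 0.28, edgeR adjusted p = 0.0683). The Rab3 GTPases Rab3a and Rab3b themselves had log2 fold changes of -0.02 and -0.05. The active zone scaffolds Bsn, Rims1, Rims2 and Pclo lay between 0.09 (Pclo) and 0.45 (Bsn), none with an unadjusted p under 0.05.

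Recycling genes split as well. The fission GTPase gene Dnm1 and its partner Amph were higher by 0.47 (SE 0.18) and 0.42 (SE 0.14) on the log2 scale, while Synj1, the phosphatase that uncoats vesicles, had -0.25 (SE 0.12), with edgeR adjusted p-values of 0.0797, 0.0583 and 0.143. In a further list of 24 endocytosis genes, 4 rose and 0 fell, against 7.26% and 3.76% of all genes tested. At an unadjusted p under 0.05 by edgeR 4 were lower, and the median was 0.22. Pip5k1c, the kinase that makes the lipid which recruits the coat, rose (log2 fold change 1.03, adjusted p = 0.033 by edgeR), as did the clathrin adaptor gene Ap2a1 (log2 fold change 1.42, adjusted p = 0.033 by edgeR), which overlaps another gene, and Sh3gl1, an endophilin (log2 fold change 0.48, adjusted p = 0.0438 by edgeR), which shares some reads too. In a list of 42 further vesicle and release genes, 41 were tested, 7 rose and 0 fell, beside the same shares over all genes. At an unadjusted p under 0.05 by edgeR 4 were lower, and the median was 0.26. The 3 smallest p-values of that list belonged to Stxbp5l, a second tomosyn (log2 fold change 1.69, adjusted p = 0.032 by edgeR), Rims4, a short Rim protein (log2 fold change 0.70, adjusted p = 0.0365 by edgeR), and Syt12, a vesicle synaptotagmin that overlaps another gene (log2 fold change 0.63, adjusted p = 0.0366 by edgeR).

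Ratios within a library compare close relatives without the scaling between libraries, and are given as a description. The log2 ratio of Vamp1 to Vamp2 reads was -3.89 ± 0.24 (SD, n = 5) in control sgLacZ and -3.31 ± 0.32 (SD, n = 6) in epileptic sgLacZ. For Cplx1 to Cplx2 it was -2.36 ± 0.17 against -1.81 ± 0.37, for Sv2b to Sv2a -1.16 ± 0.23 against -0.73 ± 0.25, and for Napb to Napa 1.40 ± 0.22 against 0.94 ± 0.16. In each of these 4 pairs the scarcer relative took a larger share in epileptic sgLacZ on average, and in each the ranges of the 2 groups overlapped. The Slc17a6 to Slc17a7 ratio moved the other way, from -4.86 ± 0.49 to -5.54 ± 0.78, and Sv2c to Sv2a went from -5.81 ± 0.28 to -4.97 ± 0.67. Syt2 to Syt1 (-5.19 ± 0.36 and -5.16 ± 0.34) and Rab3b to Rab3a (-3.63 ± 0.11 and -3.67 ± 0.24) moved by less than their SDs.

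The epileptic sgLacZ libraries differed widely among themselves. Over the 14 V-ATPase and 29 vesicle genes that share no reads with an overlapping gene, replicate 4 was the lowest of all 17 libraries for 6 V-ATPase genes and the highest for 15 vesicle genes. Replicate 5 lay within the control range for 10 V-ATPase and 23 vesicle genes, whereas replicate 4 did so for 2 and 4. The mean log2 level relative to controls was -0.31 for V-ATPase and 0.52 for vesicle genes in replicate 4, -0.07 and -0.05 in replicate 5, and -0.05 and -0.01 in replicate 8. Unmapped reads moved with this order: 11.0% in replicate 4, 15.8% in 7, 17.2% in 9, 19.5% in 6, 23.8% in 8 and 24.1% in 5, against 19.5 to 27.7% in controls. With the percent of unmapped reads in the edgeR fit, 0 V-ATPase genes and 1 vesicle gene (Syt4) were called, with 6 and 9 at an unadjusted p under 0.05. Over all genes tested that fit called 2.43%, and 23.1% had an unadjusted p under 0.05. The part of read quality in these differences was not tested further. Inferred from Xist and Y-linked reads, 4 of 6 epileptic sgLacZ libraries and 2 of 5 controls were female. Both of these controls, replicates 16 and 23, also held Y-linked reads (182 and 47, beside 628 and 781 Xist reads). The differences given among libraries inferred female rest on these controls. With sex in the fit 0 V-ATPase genes and 1 vesicle gene were called, with 7 and 15 at an unadjusted p under 0.05, while the class medians stayed at -0.20 and 0.20. Over all genes tested the fit with sex called 2.93%, and 33.5% had an unadjusted p under 0.05.

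**Figure D4:**
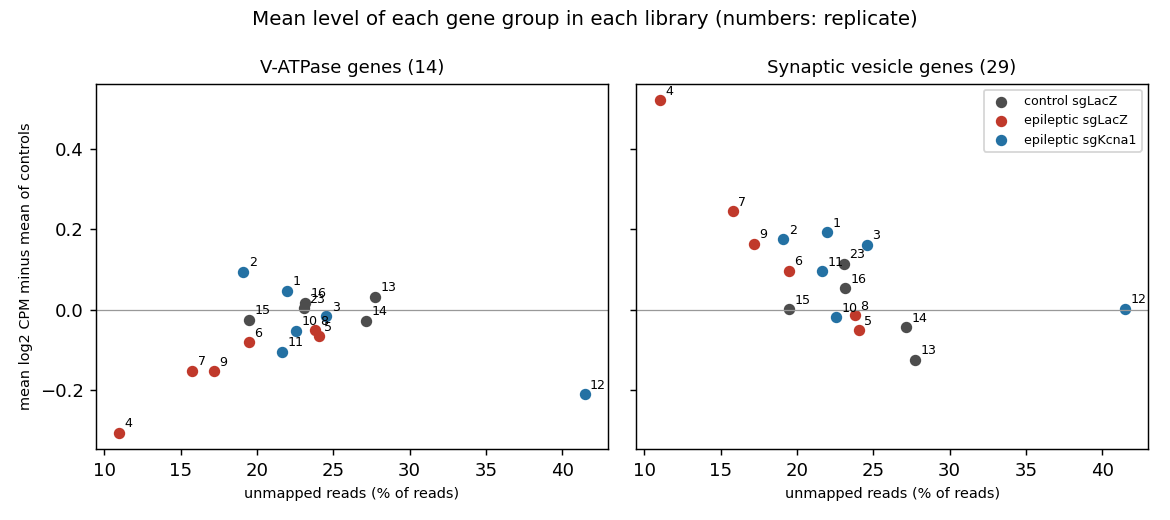
Mean log2 CPM of 14 V-ATPase genes (left) and 29 vesicle genes (right) in each library, relative to the mean of the control sgLacZ libraries, against the percent of reads left unmapped; numbers are replicate numbers. Epileptic sgLacZ replicate 4, with 11.0% unmapped reads, has the lowest V-ATPase mean (-0.31) and the highest vesicle mean (0.52), and epileptic sgKcna1 replicate 12 lies apart at 41.5%.

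Transcript length and GC content also differed between the classes. The median longest protein-coding transcript was 1976 bases for V-ATPase genes, 4127 for vesicle genes and 3016 for all genes tested. Over 14619 tested genes with such a transcript, the log2 fold change had a Spearman rho of 0.38 with length and 0.22 with GC content. Of 4 equal groups of genes by length, the shortest had a median log2 fold change of -0.23 and the longest 0.21. Among the 43 members that share no reads with an overlapping gene the rho was 0.26 with length and 0.50 with GC content. These correlations are across genes of the same libraries and carry no test. With each library's trends on GC content and length removed, an alternative chosen after the data were seen, edgeR called 0 V-ATPase genes (6 at an unadjusted p under 0.05) and 1 vesicle gene, Doc2a (14 at an unadjusted p under 0.05). It then called 432 of the 14619 genes (2.96%), and the medians were -0.10 for V-ATPase and 0.03 for vesicle genes. Syt4 then stood at -0.60 on the log2 scale with an SE of 0.18 and, by edgeR, an adjusted p of 0.0566, while Slc17a7 had a log2 fold change of 0.54 (SE 0.16) and Atp6v1e1 one of -0.18 (SE 0.09).

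**Figure D5:**
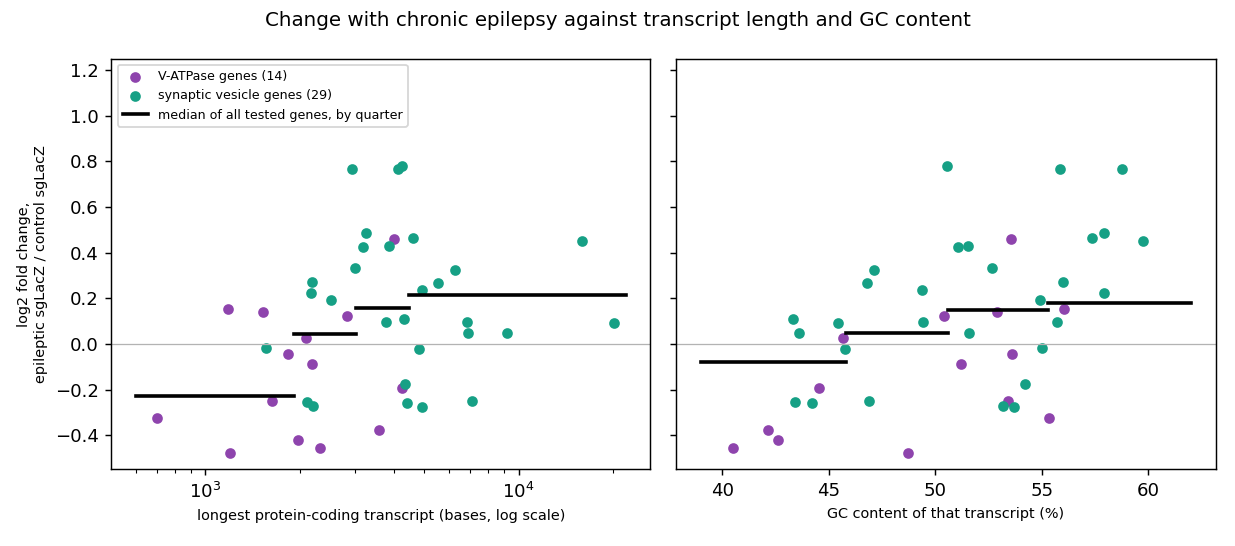
Log2 fold change in epileptic sgLacZ over control sgLacZ of 43 members (points) against the length (left, log axis) and GC content (right) of the longest protein-coding transcript; black lines are medians of all tested genes in 4 equal groups by length or GC. The lines climb from -0.23 to 0.21 with length, and V-ATPase genes sit mostly at shorter lengths and vesicle genes at longer ones.

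Of 111 tested genes on 11 lists of cell type and tissue markers, 12 were called, 10.8% against 11% of all genes tested. Of 12 pan-neuronal genes 2 fell and 0 rose (median log2 fold change -0.15), and their summed level ran from 5901 to 6350 CPM in controls and 5255 to 6259 CPM in epileptic sgLacZ. Of 8 dentate granule cell genes 1 rose (median 0.36), and of 10 interneuron genes 1 fell (median -0.32), their sums running from 2090.2 to 2563 CPM in controls and 1209 to 2457 CPM in epileptic sgLacZ. Of 12 CA pyramidal genes 1 rose and 2 fell (median 0.05). Of 10 genes each, 2 astrocyte genes, 1 microglia gene and 1 endothelial gene rose and 0 fell, and 0 oligodendrocyte and 0 choroid plexus genes were called (1 and 0 at an unadjusted p under 0.05 by edgeR). Summed choroid plexus markers ran from 1489 to 14150.3 CPM in controls and from 6055 to 13599 CPM in epileptic sgLacZ. Of the genes marking tissue that a hippocampal dissection can include, 0 of 10 thalamus genes (3 at an unadjusted p under 0.05) and 1 of 9 tested striatum genes were called. No marker list had a gene at 0 across all libraries of the series. Genes at 0 within a single group were not looked for. The part of cell makeup in the members' changes was not tested.

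In libraries labelled epileptic sgKcna1 against epileptic sgLacZ, 0 of 50 members passed the adjusted test in edgeR, as 0% of all genes tested did, and DESeq2 called 1, Syt4. The 2 comparisons share the epileptic sgLacZ libraries, so a library that is extreme there moves both. At an unadjusted p under 0.05, 3 V-ATPase genes were higher and 0 lower, and 5 vesicle genes were higher and 3 lower, against 8.69% higher and 10.5% lower over all genes. No member's groups failed to overlap, where 0.238% of all genes lay higher and 0.244% lower without overlap. The median log2 fold change was 0.07 for V-ATPase genes and -0.01 for vesicle genes.

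Syt4 had the smallest p. It read 169.6 to 339 CPM, median 212, in the sgKcna1 libraries, against 120.1 to 206 CPM in epileptic sgLacZ. Epileptic sgLacZ replicate 5 lay inside the sgKcna1 range, and sgKcna1 replicate 12 was the highest library (log2 fold change 0.62, SE 0.16, edgeR Benjamini-Hochberg adjusted p = 0.213). Without replicate 12 its log2 fold change was 0.47. Among the SNARE genes Snap25 read 2152 to 2732 CPM, median 2360.3, and overlapped epileptic sgLacZ through that group's replicate 5, which exceeded sgKcna1 replicates 1 and 11 (log2 fold change 0.23, SE 0.08, edgeR Benjamini-Hochberg adjusted p = 0.213). Vamp2 read 1139.7 to 1561 CPM, median 1245 (log2 fold change 0.26, SE 0.09, edgeR Benjamini-Hochberg adjusted p = 0.213), and its log2 fold change was 0.19 without replicate 12.

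Of the pump genes, Atp6ap2 read 349 to 554 CPM, median 416, in the sgKcna1 libraries (log2 fold change 0.35, SE 0.12, edgeR Benjamini-Hochberg adjusted p = 0.213). Atp6v1h read 234 to 323 CPM, median 274 (log2 fold change 0.29, SE 0.11, edgeR Benjamini-Hochberg adjusted p = 0.216), and Atp6v1d 365 to 461 CPM, median 432 (log2 fold change 0.28, SE 0.13, edgeR Benjamini-Hochberg adjusted p = 0.249). In all 3 the highest sgKcna1 library was replicate 12, and epileptic sgLacZ replicate 5 lay within the sgKcna1 range or, for Atp6v1d, above it. Epileptic sgLacZ replicate 8 lay within the sgKcna1 range in all 3, and replicate 6 did so for Atp6v1h and Atp6v1d. Without epileptic sgLacZ replicate 5 these 3 genes and Syt4 were called higher, in a fit that called 4.29% of all genes tested higher. Stx1a, the plasma membrane syntaxin, was higher by 0.47 (SE 0.19, unadjusted p = 0.0275 by edgeR, adjusted p = 0.229) on the log2 scale, and Slc17a7 had -0.42 (SE 0.20, edgeR adjusted p = 0.255). The 8 dentate granule and 10 choroid plexus markers were all below 0 in this comparison (medians -0.56 and -1.01), with 6 and 4 at an unadjusted p under 0.05 and 0 called by edgeR. Their part was not tested.

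In libraries labelled epileptic sgKcna1 against control sgLacZ, 0 of 50 members passed in edgeR (0% of all genes), 0 V-ATPase genes and 3 vesicle genes had an unadjusted p under 0.05, where 6.77% of all genes did, and DESeq2 also called 0. Stx1a read 97.0, 102, 109, 114 and 130.2 CPM in controls and 78.4 to 234 CPM, median 195, in the sgKcna1 libraries. Replicates 1, 2, 3 and 10 lay above every control, replicate 11 within their range and replicate 12 below them all. Its log2 fold change was 0.69 (SE 0.21, edgeR adjusted p = 0.57), and without replicate 12 it was 0.83 with an edgeR adjusted p of 0.0307, in a range from 0.0307 to 0.991 over all alternatives. Atp6v1e1 read 446 to 607 CPM, median 572, and every sgKcna1 library lay below every control (log2 fold change -0.24, SE 0.13, edgeR Benjamini-Hochberg adjusted p = 0.766). Groups that did not overlap in that direction were found for 1 of 50 members and for 101 of 17615 genes tested. Atp6v1b2 overlapped the controls (log2 fold change 0.15, SE 0.09, edgeR Benjamini-Hochberg adjusted p = 0.771). The third vesicle gene with Stx1a and Doc2a was Sv2b, higher by 0.26 (SE 0.12) on the log2 scale.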

How the data were processed

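RNA-seq counts of 17 hippocampal libraries were used. The authors aligned reads to mm10 with STAR 2.7, per the submitters' processing notes, which also name DESeq2, and deposited raw counts per gene in 3 columns (either strand, forward, reverse). The annotation release, trimming and handling of duplicates are not given in the sources used here. Reads mapping to several places are not in these counts. The labels name a TruSeq v2 kit and the study's methods a stranded kit. Reverse over forward counts ran from 0.994 to 0.998, so the unstranded counts were used. In them a read inside 2 overlapping genes counts for neither. In 7 members the strand columns together held more than 1.05 times the unstranded count, and these were called overlapping.

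Groups and replicate numbers came from the labels. Symbols were matched by Ensembl identifier (32620 of 55450). Genes were filtered with filterByExpr, scaled by TMM and fitted over all 17 libraries with the quasi-likelihood test of edgeR 4.0.16 (R 4.3.3), and p-values were Benjamini-Hochberg adjusted over the 17615 genes tested, with a threshold of 0.05. Where unadjusted p-values are given they come from the same fit. The SE of a log2 fold change was derived from the edgeR test, as its absolute value over the square root of the F statistic. Ratios of relatives used a prior count of 0.5. The depth sets a floor of 3 reads, between 0.106 and 0.253 CPM per library, which covers counting error only. Transcript length and GC content came from GENCODE M1 protein-coding transcripts, and promoters from RefSeq (GRCm38.p6).

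Alternatives were DESeq2 1.42.0, voom of limma 3.58.1 with sample quality weights, RLE size factors, no filter, both strand columns added, the percent of unmapped reads or inferred sex as covariates, only the 2 groups compared, each library left out, and removal of length and GC trends (lowess, span 0.3). A library was called female with more Xist than Y-linked reads. In 6 libraries both signals reached 40 reads. Genes were chosen for closer description by the smallest p or by name. By p they were the 5 V-ATPase and 5 vesicle genes in epileptic sgLacZ against control sgLacZ. For epileptic sgKcna1 they were the 3 and 3 against epileptic sgLacZ and the 2 and 2 against control sgLacZ. By name they were 8 vesicle genes (Slc17a6, Slc17a7, Snap25, Syp, Vamp1, Vamp2, Syt1, Syt2). Of each further pathway list, the 3 genes with the smallest p were given as fold changes. The members and all lists were chosen with earlier results of these data known. 1 listed gene is not reported here.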

Additional observations from a re-analysis of the deposited data

Results flagged for a closer look

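For the 50 members, Kcna1 and 8 ratios, 177 groups of 5 or 6 libraries were checked for a single library far from the rest (Dixon's test), and 21 were flagged. Chance flags about 1 in 20 groups. Of the 21, 12 were in epileptic sgKcna1 replicate 12, the library with 41.5% unmapped reads. It was high for Kcna1 at 133 CPM (next library 29.5), Atp6ap2 at 554 CPM (next 423), Atp6v0b at 375 CPM (next 259.8), Cplx2 at 2818 CPM (next 2139), Napb at 1066 CPM (next 654), Sv2a at 960.4 CPM (next 592), Synj1 at 563 CPM (next 408), Syt1 at 1216 CPM (next 938) and Syt7 at 312 CPM (next 229). It was low for Atp6v0c at 179 CPM (next 439.8), Doc2a at 0 CPM (next 3.14) and the Cplx1 to Cplx2 log2 ratio at -3.38 (next -2.21). Control sgLacZ replicate 15 was flagged low for Syp at 839.7 CPM (next 1136), Syt1 at 792 CPM (next 926) and Vamp2 at 1160.3 CPM (next 1319), and replicate 13 low for Syn3 at 0.108 CPM (next 1.07). Epileptic sgLacZ replicate 4, with 11.0% unmapped reads, was flagged high for Bsn at 371 CPM (next 225), Syt1 at 1189.8 CPM (next 889), Syt7 at 317 CPM (next 235) and Vamp1 at 155 CPM (next 113), and replicate 5 of that group high for Syp at 1184 CPM (next 952). The part of read quality in these values was not tested.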

How the results depend on the processing

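In epileptic sgLacZ against control sgLacZ, 3 V-ATPase and 4 vesicle genes were called. With DESeq2 these were 6 and 11 (3686 genes in all, against 1940), with voom 9 and 20 (7301 genes), with only the 2 groups compared 4 and 10 (3045 genes), with the percent of unmapped reads as covariate 0 and 1 (428 genes), with sex as covariate 0 and 1 (516 genes), and with length and GC trends removed, chosen after the data were seen, 0 and 1 (432 genes). RLE size factors, no filter and both strand columns added kept both counts within 1.5 times. Leaving out single libraries gave 0 to 8 V-ATPase and 0 to 15 vesicle genes. They were 0 and 0 without any of the 5 control libraries or epileptic sgLacZ replicate 4, 7 or 9, fits that called 0% of all genes (2.9% without control replicate 15). They were 8 and 15 without epileptic sgLacZ replicate 5 (31.3% of all genes, against 11% with all libraries), 5 and 7 without replicate 8 (13.6%), and 7 and 15 without epileptic sgKcna1 replicate 12 (27.1%). The cause was not tested. For epileptic sgKcna1 against epileptic sgLacZ the counts of 0 and 0 became 0 and 1 with DESeq2 (143 genes in all; voom called 12, no filter 1) and 0 to 3 and 0 to 1 over the libraries left out, 3 and 1 without epileptic sgLacZ replicate 5 (8.54% of all genes). For epileptic sgKcna1 against control sgLacZ they became 0 and 1 (Stx1a) with unmapped reads as covariate (266 genes), with voom (71 genes; DESeq2 39) and without epileptic sgKcna1 replicate 12 (14 genes), and the vesicle count ran from 0 to 1 over the libraries left out. In epileptic sgLacZ against control sgLacZ, 15 of the 50 members changed sign under at least 1 setting, 7 of them with length and GC trends removed. Of the 15, 3 had an unadjusted p under 0.05: Doc2a and Syn3 with both strand columns added, and Atp6v1f with length and GC trends removed (0.15). Among the genes chosen for closer description in this comparison, signs changed for Doc2a (-0.18 with both strand columns added) and Slc17a6 (-0.21 with voom, -0.02 without control replicate 16, from -0.16 without epileptic sgLacZ replicate 4 to 0.21 without replicate 9). They also changed for Syt1 (0.00098 with no filter, 0.028 with unmapped reads, from -0.12 without epileptic sgLacZ replicate 4 to 0.023 without replicate 8) and Syt2 (-0.16 with unmapped reads, -0.22 with voom, -0.24 with length and GC trends removed, -0.00091 without control replicate 14, from -0.15 without epileptic sgLacZ replicate 4 to 0.15 without replicate 9). No paired analysis was possible because the groups share no replicate numbers.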

Other observations

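Some further pump genes were not tested for want of reads in the unstranded counts. Atp6v1b1, Atp6v1g3, Atp6v0a4 and Atp6v0d2 reached at most 15, 6, 19 and 6 reads in any library. They are isoforms best known from kidney, bone or other acid-secreting tissue. Atp6v1e2, best known from testis, reached at most 6 reads. Rnasek, a pump-associated protein of most cells, reached at most 9 reads. The unstranded counts leave out reads shared with an overlapping gene, and whether this lowered the count of Rnasek was not tested.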
